A study of Mus musculus with 2 samples.

Results

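The super elongation complex genes described here are 10 mouse genes: Ell, Ell2, Ell3, Eaf1, Aff1, Aff3, Aff4, Mllt1, Mllt3 and Hexim1, out of 21523 protein-coding genes on chromosomes 1 to 19 and X. They were set as a list of complex components and partners, and the list was picked because of the 4 FLAG-HLF peaks at Ell2, so the peak counts of these genes are given as a description and no test was made on them. The peaks come from 1 anti-FLAG chromatin immunoprecipitation sequencing (ChIP-seq) library of C57BL/6 mouse Lin-Sca-1+c-Kit+ (KSL) cells, a surface phenotype in which blood stem cells and early progenitors are enriched. The cells carried the transgene MigR1 3xFLAG-HLF/HLF, brought in by retrovirus. The list has 3153 peaks of 400 bp with no height or score, and the read depth is unknown. Their counterpart, KSL cells with MigR1 empty vector (n = 1), was not analysed here. Cells of both groups came from animals of 8 to 10 weeks with the tissue given as blood, and were cultured for 5 days with SCF, IL-7, Flt3L and IL-3. HLF was therefore supplied by a vector and recovered through its tag, and the endogenous protein was not assayed. A list of peak positions holds no expression values, so the cell type was not checked against markers.

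The super elongation complex releases RNA polymerase II that has paused shortly after the start of a gene. AFF proteins form its scaffold and hold together an ELL elongation factor, a YEATS-domain reader of acylated histones (ENL, encoded by Mllt1, or AF9, encoded by Mllt3) and the kinase P-TEFb, while HEXIM1 keeps P-TEFb inactive on the 7SK RNA. In human acute leukaemia the genes for ELL, AFF1 (AF4), AFF3, AFF4, ENL and AF9 are fused to KMT2A (MLL), and HLF itself is fused to TCF3. HLF belongs to the PAR bZIP family of transcription factors, which bind palindromic words such as TTACGTAA.

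The annotated starts of these genes are shown first, and none of their peaks lay on one. A RefSeq table (GRCm38.p6, the coordinates of mm10) gave 12 start windows for the 10 genes, each with 250 bases before and 50 after the start. All 17 peaks in or within 150 kb of the genes missed these windows. Among all protein-coding genes with such a window, 166 of 17274, or 0.961%, had one overlapped by a peak. The absence among these 10 genes is near that share and is not read as a trait of them. The first sequence below is the window of Ell2, for whose 4 peaks the genes were picked (chr13:75707234-75707533, plus strand), and the second is that of the Aff1 start that lay nearest to a peak (chr5:103753912-103754211, plus strand). Both are written 5′ to 3′ and capitals mark the word TGACGTCA, the palindrome bound by CREB and ATF bZIP factors, which was looked for after the Ell2 sequence had been seen.
Ell2: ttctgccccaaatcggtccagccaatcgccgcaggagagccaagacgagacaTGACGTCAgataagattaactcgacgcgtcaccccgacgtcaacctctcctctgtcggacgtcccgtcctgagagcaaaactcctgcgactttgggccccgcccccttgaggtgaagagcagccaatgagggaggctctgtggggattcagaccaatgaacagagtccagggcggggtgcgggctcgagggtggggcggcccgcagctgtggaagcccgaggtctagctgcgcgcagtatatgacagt
Aff1: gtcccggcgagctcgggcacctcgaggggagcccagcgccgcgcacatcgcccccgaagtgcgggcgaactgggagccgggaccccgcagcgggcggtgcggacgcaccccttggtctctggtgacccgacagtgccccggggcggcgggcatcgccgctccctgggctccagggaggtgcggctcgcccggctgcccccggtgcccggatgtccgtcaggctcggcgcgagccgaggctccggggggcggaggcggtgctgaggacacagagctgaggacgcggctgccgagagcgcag
The PAR bZIP words TTACGTAA and TTATGTAA, searched on both strands (the second reads TTACATAA on the other), were in the windows of 0 of the 10 genes and of 209 of 17274 genes in all, or 1.21%. TTACGTAA alone (in 0.145% of all genes with a window), the C/EBP-like word TTGCGCAA (0.249%) and the PAR bZIP words in the inner 150 bases (0.735%) were also in 0 of the 10. With shares this low over all genes, 0 of 10 is not read as a trait of these genes. TGACGTCA is its own reverse complement and shares the letters ACGT with TTACGTAA. It stood in the window of Ell2 alone among the 10 genes, starting 198 bases before the annotated start. Of all genes with a window, 2.58% held it. The word was looked for after the Ell2 sequence had been seen, so nothing is read from its presence there. In G and C content, 11 of the 12 windows were above the median of 56.7% over 21045 windows of protein-coding genes. The highest was that of Aff3 at 83.3%, the printed Aff1 window had 77.3% and that of Ell2 61.3%, and the internal second Mllt3 window was lowest at 44.7%. The sequence under the peaks was not analysed here.

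With a region of the gene body plus 20 kb past each end (written "at 20 kb" from here on), 4 of the 10 genes had a peak centre: Ell2, Aff1, Mllt3 and Ell. The same held for 15.3% of all protein-coding genes, and nothing is read from the contrast because the list was chosen on it. The 4 genes had 7 distinct peaks, of which 5 lay inside a gene body and 2 outside. No peak lay within 1 kb of an end of any of the 10 genes, and 1, in Aff1, lay within 5 kb. The share over all genes for these distances to an end is not given here, so nothing is read from them. Widening the region to 100 kb on either side brought in 5 more peaks and a further 2 genes, Hexim1 and Eaf1, making 6 of 10 genes, against 36.9% of all protein-coding genes. The bodies alone held a peak in 3 of the 10 genes, against 6.94% of all. With 5 kb on either side the count was also 3 of 10, against 9.58%, and with 50 kb it was 5 of 10, against 24.6%.

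**Figure D1:**
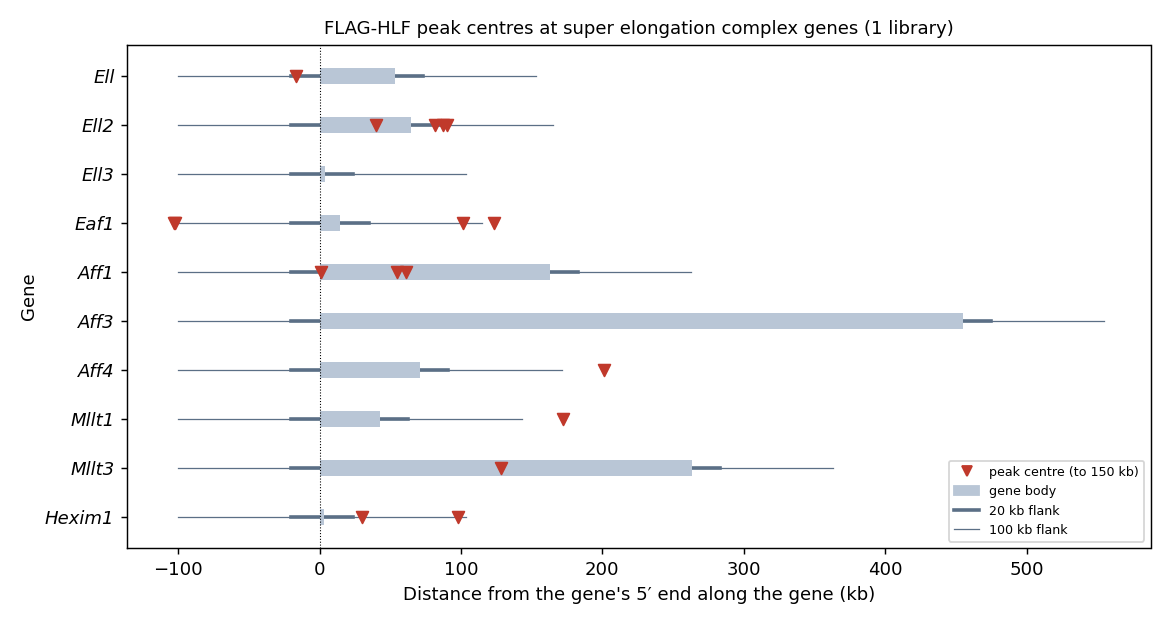
Positions of FLAG-HLF peak centres (triangles) at the 10 genes, in kb from the 5′ end of each gene along its direction of transcription. Bars are gene bodies, and the thick and thin lines mark 20 kb and 100 kb on either side. The peaks of Ell2 lie in its distal body and beyond its 3′ end, and the 3 peaks of Aff1 lie between its 5′ end and 60.9 kb inside.

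The ELL genes encode the elongation factors that suppress pausing by the polymerase. Ell2, which in B lineage cells is known for its part in the switch to secreted immunoglobulin transcripts, lies on the plus strand of chromosome 13 (gene ID 192657; 75707484 to 75772361, 64.9 kb). Its first peak (75747337 to 75747736) was centred inside the gene, 40.1 kb from the 5′ end and 24.8 kb from the 3′ end. The other 3 lay past the 3′ end, at 16.9 kb (75789062 to 75789461), 22.2 kb (75794319 to 75794718) and 25.6 kb (75797738 to 75798137). The last 2 are just outside the limit of 20 kb and the first is just inside it, so Ell2 counted 2 peaks at 20 kb and all 4 at 100 kb. None of the 4 was in or within 20 kb of another protein-coding gene. The next such gene downstream, Glrx, encoding glutaredoxin, began 41.9 kb beyond the last peak, and upstream the nearest was Pcsk1, 573 kb away.

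The 3 peaks in the 3′ flank of Ell2 lay close together. Their neighbouring centres were 5.26 kb and 3.42 kb apart and spanned 8.68 kb, while the peak in the gene body stood 41.7 kb from the first of them. Of the 3153 peaks in the list, 170, or 5.39%, had a neighbour within 3.42 kb. The share was 7.74% within 5.26 kb and 29.0% within 41.7 kb. Runs of 3 peaks within 8.68 kb occurred 9 times in the list and took in 25 peaks, or 0.793%. Runs of 4 peaks within the 50.4 kb of the full Ell2 set occurred 15 times and took in 51 peaks, or 1.62%. Overlapping runs were each counted, and the runs of Ell2 are included.

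The peak count of Ell2 is set beside those of all genes as a description. At 100 kb, 1.1% of protein-coding genes had 4 or more peaks, and among 1672 genes of 0.8 to 1.25 times the length of Ell2 the share was 1.08%. At 20 kb, 2.72% of protein-coding genes had 2 or more, and 3.83% of those of like length. A peak in the body was found in 12.0% of genes of like length. Of the 480 genes with 2 peaks at 20 kb, Ell2 included, the 5 closest to Ell2 in region length included Ddx31, encoding a DEAD-box helicase, Tent4b, encoding a poly(A) polymerase, Hgf, encoding hepatocyte growth factor, and Syk, encoding a kinase of B cell receptor signalling. Within 100 kb, Syk had 4 peaks as Ell2 did, Hgf had 3, and Ddx31 and Tent4b had 2.

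The other two ELL genes had fewer peaks at 20 kb, with 1 at Ell and 0 at Ell3. Ell, the founding member and a fusion partner of KMT2A in human leukaemia (gene ID 13716; chromosome 8, 70539675 to 70592858, plus strand), had 1 peak (70523140 to 70523539), 16.3 kb upstream of its 5′ end. That peak lay 159 bp from Kxd1, which encodes a subunit of the lysosome-positioning BORC complex, and 4382 bp from Fkbp8, which encodes an FK506-binding protein. It was counted for 5 other protein-coding genes at 20 kb in all, so it cannot be given to Ell alone. Of genes of like length to Ell, 20.2% had a peak at 20 kb. On the other side of Ell the next peak was 199 kb away. Ell3, the shortest gene of the 3 (gene ID 269344; chromosome 2, 121439027 to 121442601, minus strand), had its nearest peak 463 kb away. Of genes of like length to Ell3, 35.7% had a peak within 100 kb.

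Eaf1 encodes a factor that binds ELL proteins and stimulates their activity (gene ID 74427; chromosome 14, 31495079 to 31509858, plus strand). It had no peak at 20 kb and 1 within 100 kb, which was 86.8 kb past the 3′ end and 10535 bp from Hacl1, encoding a peroxisomal lyase. Another 3 lay just beyond the wide limit, of which 2 were inside Sh3bp5 and 1 inside Hacl1. A peak within 100 kb was found at 40.0% of genes of like length.

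The AFF genes encode the scaffold. Aff1 (gene ID 17355; chromosome 5, 103692362 to 103855322, 163 kb, plus strand), the counterpart of the human gene most often joined to KMT2A in infant lymphoblastic leukaemia, held 3 peaks, all inside its body and counted for no other protein-coding gene. The first (103693178 to 103693577) was centred 1015 bp inside the 5′ end of the gene's annotated extent. The next (103746765 to 103747164) and the last (103753059 to 103753458) stood 54.6 kb and 60.9 kb inside and 6.29 kb from each other. Both Aff1 starts that have a window in the RefSeq table are internal to this extent. The last peak was centred 904 bp upstream of the nearer of them and the middle peak 7198 bp upstream, and 454 bp separated the end of the last peak from the start window printed above. All 3 peaks lay upstream of both listed starts. Their place in the body therefore rests on the annotated extent, and counted from the listed starts none would be in the body. The counts, shares and density of body peaks that include Aff1 depend on this extent.

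The surroundings of Aff1 held no further peak, the next being 1190 kb before and 1770 kb after the gene. In the body, 3 or more peaks were found in 0.923% of the 758 genes of like length and in 0.181% of all protein-coding genes. At 20 kb the share of genes of like length with 3 or more was 1.45%, and at 100 kb it was 5.54%. Runs of 3 peaks within the 59.9 kb that the Aff1 peaks spanned occurred 120 times in the list and took in 301 peaks. Overlapping runs were each counted, and that of Aff1 is included.

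Aff3 and Aff4 lacked peaks at both limits. Aff3, known in lymphoid cells and also a fusion partner of KMT2A (gene ID 16764; chromosome 1, 38175393 to 38630178, minus strand), is the longest of the 10 at 455 kb. Its nearest peaks were 306 kb and 853 kb from its ends. Of the 240 genes of like length, 27.1% held a peak in the body and 38.3% had one within 100 kb. Aff4, the scaffold of the broadly used form of the complex (gene ID 93736; chromosome 11, 53350640 to 53421830, plus strand), had its nearest peak 130 kb past the 3′ end, 2426 bp from Septin8. Of genes of like length to Aff4, 40.7% had a peak within 100 kb.

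Of the YEATS reader genes, Mllt3 held a peak and Mllt1 did not. Mllt3, encoding AF9, which in human haematopoietic stem cells is known as a factor of self-renewal, spans 263 kb on the minus strand of chromosome 4 (gene ID 70122; 87769925 to 88033407). It held 1 peak (87904666 to 87905065), 129 kb downstream of the 5′ end and 98.5 kb upstream of its second annotated start, with no other protein-coding gene within 20 kb. A body peak was found in 28.7% of the 449 genes of like length, and 31.8% had one at 20 kb. Mllt1, encoding ENL, which some human leukaemia cells are known to need (gene ID 64144; chromosome 17, 56892608 to 56935509, minus strand), had no peak within 100 kb. The nearest was 129 kb away and 1112 bp from Dus3l. A peak within 100 kb was found at 39.5% of genes of like length.

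Hexim1, which encodes the inhibitor of P-TEFb (gene ID 192231; chromosome 11, 103116325 to 103119725, plus strand), had no peak at 20 kb and 2 at 100 kb. The nearer (103146417 to 103146816) was 26.9 kb past its 3′ end but 6.71 kb from Hexim2, the adjacent paralogue with the same biochemical role. The farther, at 94.6 kb, lay inside Spata32. Of the 1246 genes of like length, 11.4% had a peak at 20 kb and 10.8% had 2 or more within 100 kb, where 12.6% of all protein-coding genes had 2 or more.

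**Figure D2:**
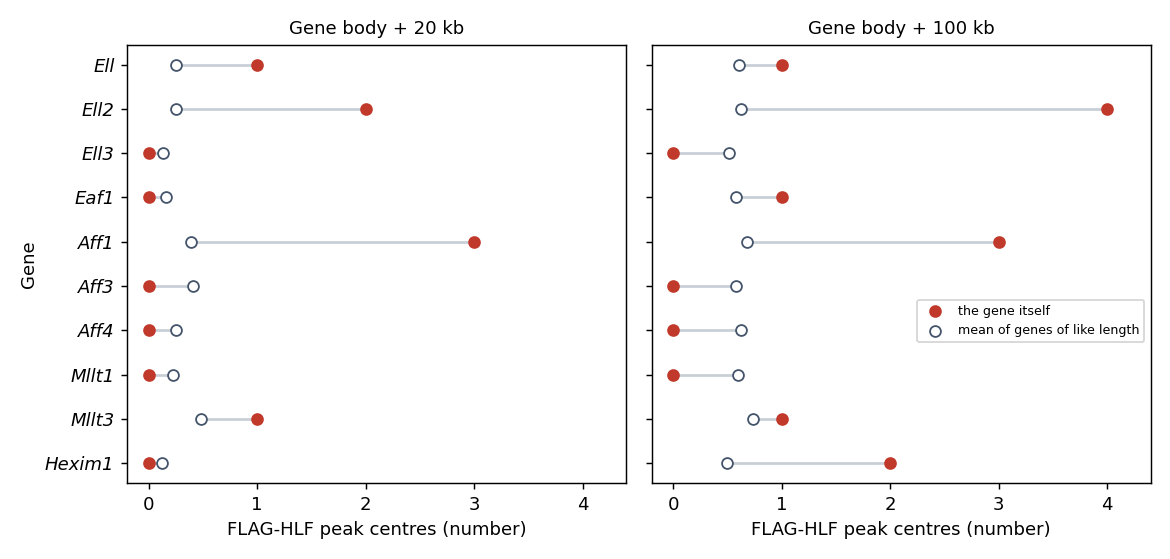
Number of FLAG-HLF peak centres at each of the 10 genes (filled) and the mean over all protein-coding genes of 0.8 to 1.25 times its length (open), for the body plus 20 kb and plus 100 kb. Ell2 has 2 peaks at 20 kb, against a mean of 0.251, and 4 at 100 kb, against 0.621. Aff1 has 3 in both, against 0.393 and 0.682.

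Giving each peak to the gene that contains it, or else to the gene with the nearest end within 100 kb, left 8 peaks with 3 of the 10 genes: 4 with Ell2, 3 with Aff1 and 1 with Mllt3. Under the same rule 11.3% of all protein-coding genes were given a peak, and nothing is read from this contrast either. The peak counted for Ell went to Kxd1, those within 100 kb of Hexim1 went to Hexim2 and Spata32, and that of Eaf1 went to Hacl1. The 10 gene bodies held 5 peaks over 1.14 Mb, or 4.4 per Mb, against 1.69 per Mb over the 1028.5 Mb of all protein-coding bodies. Of these 5 peaks, 3 were in Aff1 and 1 in Ell2. Those in Aff1 are in its annotated extent but upstream of both its listed starts. The list was picked for the peaks at Ell2, so nothing is read from the densities. The 10 genes are long, with a median of 59.0 kb, against 17.4 kb for all protein-coding genes. The part of gene length in the shares over all genes was not tested.

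The wider elongation machinery was described through a list of 38 further genes chosen by role. Of these, 12, or 31.6% (exact Clopper-Pearson 95% interval 17.5 to 48.7%), had a peak at 20 kb, against 15.3% of all protein-coding genes. Inside the body the count was 3 of 38, or 7.89% (1.66 to 21.4%), against 6.94%. The intervals cover counting error over genes only and treat genes as independent, although many of these peaks are shared with neighbouring genes. The list was chosen with earlier results of these data known, so nothing is read from the contrast with all genes. The median distance from gene to nearest peak was 60.8 kb for this list and 56.9 kb for the 10 genes, against 179 kb for all protein-coding genes. The 10 genes were picked for the peaks at Ell2, so nothing is read from their median or from its closeness to that of the list. Median gene length was 28.2 kb in the list, and its part in these values was not tested.

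**Figure D3:**
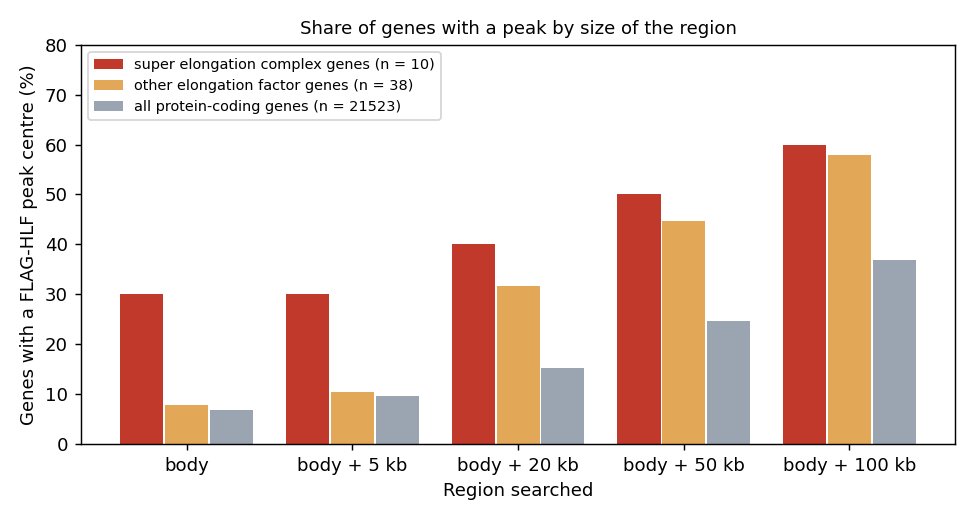
Share of genes with a FLAG-HLF peak centre in the region searched (percent), for the 10 super elongation complex genes, the 38 other elongation factor genes and all 21523 protein-coding genes. The shares of the 38 genes and of all genes lie close for the body, at 7.89% and 6.94%, and apart at 20 kb, at 31.6% and 15.3%. No test was made on these shares.

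The counts by role that follow are at 20 kb, where 15.3% of all protein-coding genes had a peak. Each role holds few genes, and nothing is read from its count. Among P-TEFb and its 7SK partners, 2 of 7 genes had a peak. Ccnt2, encoding a cyclin subunit of P-TEFb, had 2 inside the gene: 1 (chromosome 1, 127774393 to 127774792) centred 428 bp downstream of its 5′ end, and 1 at 11.9 kb. Of the 15 peaks counted for the 38 genes, the one at 428 bp alone lay within 1 kb of an end of its gene. The like share over all genes is not given here, and nothing is read from this. Hexim2 was counted through the peak it shares with the surroundings of Hexim1. Those without a peak included Cdk9, Ccnt1, Larp7 and Mepce.

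The pausing factors NELF and DSIF had 3 of 6 genes with a peak at 20 kb, against 15.3% of all protein-coding genes. All of these peaks were outside the gene, and each lay inside or nearer to another protein-coding gene. Nelfb, encoding a NELF subunit, had 1 at 17.1 kb, and Nelfcd, encoding another, 1 at 10.3 kb that lay inside Ctsz. Supt4a, encoding the small DSIF subunit, had 1 on each side, at 17.8 kb inside Rnf43 and at 16.1 kb inside Tspoap1. In the PAF complex, which travels with the elongating polymerase, 2 of 6 had a peak at 20 kb, against the same 15.3%. These were Cdc73, at 19.6 kb inside the gene from its nearer end, and Rtf1, at 23.5 kb inside.

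Of the other elongation factors, 3 of 7 had a peak at 20 kb, against 15.3% of all protein-coding genes. Supt6, encoding the histone chaperone SPT6, had peaks at 1.94 kb and 8.68 kb outside, inside Sdf2 and Proca1. Ssrp1, encoding a subunit of the FACT chaperone, had 1 at 9.62 kb, inside P2rx3, and Cdk12, encoding a kinase of the polymerase tail, 1 at 8.96 kb, nearer to Med1. In the little elongation complex, which serves small nuclear RNA genes, Ice2 had 1 peak at 6.84 kb past its 3′ end. Mllt6, among 6 further genes grouped as AFF, EAF, YEATS and DOT1L, had 1 at 17.2 kb, which lay 237 bp from another protein-coding gene. None of Kmt2a, Men1 and Psip1, which encode MLL and its chromatin partners, had a peak at 20 kb. Of the 15 peaks counted for the list, 4 lay inside a list gene, and 6 were given to one of 5 list genes (Ccnt2, Hexim2, Ice2, Cdc73 and Rtf1) when each peak went to its containing or nearest gene. These are 5 of 38 genes, against 11.3% of all protein-coding genes under that rule.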

How the data were processed

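One processed file was used, the peak list of the FLAG-HLF library. It has 3153 intervals with chromosome, start and end, deposited by the authors with no header and no other value such as a score, height or p-value. Every interval is 400 bp wide. Per the submitters' processing notes, Bowtie2 2.0.6, MACS2 2.0.10 and mm10 were used, with no role given. How peaks were thresholded, whether the empty-vector library served as control, and how all peaks came to 1 width are points not given in the sources used here. Read depth is unknown, so the sensitivity of the list and the strength of a peak could not be set, and with 1 library there is no replicate error.

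Peaks were placed by their centre (start + 200). Genes came from the RefSeq table of GRCm38.p6, which shares the chromosome coordinates of mm10: 49214 of 49997 rows were used, leaving out Y, mitochondrial and unplaced genes and those starting below 3 Mb, which carry scaffold coordinates. All 10 genes and all 38 list genes matched by symbol. Strand and starts came from the RefSeq promoter table, which gives no exons, so exons, introns and UTRs were not assigned. Counts were made with Python 3.11.15, pandas 2.3.3 and numpy 2.4.6, and tested on simulated peaks. No significance test was run. The rule for named genes took all 10 genes, every list gene with a peak at 20 kb, the genes sharing or holding a peak, and the 5 genes most like Ell2. Some genes that this rule names are not reported here. The genes, lists and regions were chosen with earlier results of these data known. Alternatives for placing peaks, region size, giving each peak to 1 gene, merging close peaks and the promoter words are given in the closing section.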

Additional observations from a re-analysis of the deposited data

How the results depend on the processing

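With the body plus 20 kb as the region, 4 of the 10 genes had a peak, and the other settings gave 3 to 6. The number of distinct peaks at the 10 genes was 7. It became 5 in the body alone and within 5 kb, 10 at 50 kb and 12 at 100 kb. With 1 gene per peak it was 8. The number at Ell2 was 2, and it became 1 in the body alone and within 5 kb, and 4 at 50 kb, at 100 kb and with 1 gene per peak. Of the 38 list genes 12 had a peak. This count became 3 in the body, 4 within 5 kb, 17 at 50 kb and 22 at 100 kb. It was 5 with 1 gene per peak. For the settings that differ in region size, that size is the cause by construction. Giving each peak to 1 gene changes both the sharing of peaks and the reach, which is then 100 kb, and the cause of its changes was not tested. Counting any base of an interval, or merging centres within 1 kb, changed none of these counts. PAR bZIP words were in 0 of the 10 genes' start windows, also with TTACGTAA alone, with TTGCGCAA in their place and in the inner 150 bases, while TGACGTCA, chosen after the data were seen, was in 1. No paired analysis was possible because there is 1 peak list, and no replicate could be left out. Without depth or scores, absence from the list does not show absence of binding.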
